A study of Drosophila melanogaster with 28 samples.

Results

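Embryos carrying the nej3 allele were compared with w1118 embryos at the same age, 14 to 16 h after egg laying. Members were chosen by the genotype and age in the sample labels, which gave 4 nej3 and 4 w1118 libraries, 8 of the 28 libraries in the series. The other libraries at that age were 4 of nejEP1179, a second allele of the same gene, and they are used here for a direct allele comparison. Ranges are also given from libraries at 16 to 18 h, which were 3 of w1118, 3 of SppsG8810, 3 of ez731, 3 of psch27 (the title of 1 spells it psh27), 2 of psce22 and 2 of Dfd1. All are short-read messenger RNA libraries of whole Drosophila melanogaster embryos, counted per gene.

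The gene nej (nejire) encodes the single fly member of the CBP/p300 family. These proteins are acetyltransferases that are recruited by transcription factors, bind enhancers and promoters, and acetylate histones, among them lysine 27 of histone H3. In the fly embryo CBP is known as a coactivator in the Hedgehog, Wingless and Dpp pathways, and its acetyl mark opposes silencing by the Polycomb group. A whole-embryo library reports on every tissue at once, and fewer cells of a type and less RNA per cell cannot be told apart.

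The nej3 stock is listed in the study's methods as w[*] nej3 over an X balancer, and nej lies on the X chromosome. The lesion in nej3 is not given in the sources used here. Recessive lethal alleles were kept over GFP-marked balancers, and 20 to 30 mutant embryos per replicate were picked by shape and lack of GFP after a 2 h collection at 25 degrees. The labels repeat this protocol for w1118, whereas the study's methods describe the selection for mutants alone. The control strain w1118 carries a deletion in the eye pigment gene w. The nejEP1179 allele is named for an EP element, a transposon that carries a w marker gene. Parental stocks and allele changed together between nej3 and w1118, and by the study's methods, though not by the labels, so did the picking. An effect of nej3 and one of the strain thus cannot be told apart in this comparison. The labels do not give the sex of the embryos or say whether replicates came from separate collections, so p-values measure the spread between these samples.

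The total count per library was 15974066 to 21509453 in the 8 libraries compared. Levels are counts per 1000000 counts of a library (CPM) after scaling with TMM, the trimmed mean method of edgeR, changes are log2 fold changes with the SE of the fit, and a gene was called at an adjusted p under 0.05. The first principal component, with 43.7% of the variance, separated w1118 from both nej alleles. The second, with 23.3%, set nej3 replicates 1 and 3 and w1118 replicate 4 apart from the other libraries of their groups. The summed level of cuticle protein genes was lower in those libraries: 5387 and 5547 CPM in nej3 replicates 1 and 3 against 9527 and 7834 CPM in replicates 2 and 4, and 4505 CPM in w1118 replicate 4 against 6181 to 6685 CPM in the others. The part of this difference in the results was not tested. Counts of gene lists are also given without these 3 libraries where a count moved by more than 1.5 times. That fit keeps nej3 replicates 2 and 4 and w1118 replicates 1, 2 and 3. With fewer libraries a call can be lost even where the estimate hardly moves, so a lost call does not show that these libraries carried it.

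The transcript of the mutated gene was not lower. nej (FBgn0261617, X 9665442 to 9687066 on dm6) measured 251, 248, 226 and 247 CPM in nej3 replicates 1 to 4 and 257, 255, 253 and 232 CPM in w1118. The groups overlapped, and the log2 change was -0.04 ± 0.10 (adjusted p = 0.84). Gene counts do not show whether the encoded protein was made. In nejEP1179 the same transcript was higher than in nej3, with 358 to 533 CPM (nej3 minus nejEP1179 -0.77 ± 0.10, adjusted p = 5.2e-04).

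In all, 2495 of 10397 genes tested were called between nej3 and w1118, 24.0% of them. Of these, 1283 (12.3%) were higher and 1212 (11.7%) lower in nej3, and the median log2 change over all genes tested was -0.009. Most changes were small, as 1676 called genes (67.2%) changed by less than 1.5-fold. Only 264 genes (2.54%) rose and 176 (1.69%) fell by more than 2-fold, while 97 rose and 45 fell by more than 4-fold. Every nej3 library lay above every w1118 library for 13.7% of genes and below for 13.6%. Without the 3 libraries that stood apart, 1761 genes were called (970 higher and 791 lower), of which 1541 were among the 2495.

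The 20 largest rises and 20 largest falls were chosen among called genes without overlap between the nej3 and w1118 libraries. The lack of overlap in them is thus part of the choice and no result. By the fitted change the first of the large rises were w, sordd2 and Hsp70Bc, with 3 to 6 counts over the w1118 libraries, and Ipod followed. Ipod, whose product binds the methyltransferase Dnmt2 (FBgn0030187, X 10231002 to 10233080), measured 1004, 1349, 1018 and 1219 CPM in nej3 replicates 1 to 4 against 5.29, 7.01, 6.01 and 6.20 CPM in w1118. The log2 change was 7.55 ± 0.15 (adjusted p = 1.1e-12). Large rises were also seen in 2 P450 genes, Cyp309a2 and Cyp4p2, which encode oxidative enzymes of the kind that handle toxins and hormones. Cyp309a2 (FBgn0041337, 2L 2564886 to 2573037) measured 41.7 to 48.5 CPM in nej3 and 0.274 to 1.01 CPM in w1118 (6.27 ± 0.16, adjusted p = 1.3e-12). Cyp4p2 (FBgn0033395, 2R 9237512 to 9239831) measured 14.6 to 19.5 CPM in nej3 and 0.144 to 0.332 CPM in w1118 (5.99 ± 0.16, adjusted p = 9e-13). Both were nearly silent in the controls.

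Several secreted and tissue-specific products rose as well. TwdlU, a cuticle protein of the Tweedle family (FBgn0037223, 3R 4243606 to 4245511), measured 15.9, 19.5, 12.8 and 17.9 CPM in nej3 and at most 0.713 CPM in w1118 (4.80 ± 0.21, adjusted p = 7.9e-10). Tep4, a thioester-containing protein of the hemolymph (FBgn0041180, 2L 19548507 to 19556451), measured 113, 108, 118 and 112 CPM in nej3 against 17.0, 14.4, 15.6 and 13.1 CPM in w1118 (2.90 ± 0.07, adjusted p = 9e-13). Its 4 nej3 values were nearly equal. The prolyl hydroxylase genes of the salivary gland moved in opposite directions. PH4alphaSG2 (FBgn0039779, 3R 30490074 to 30491987) measured 31.8, 32.0, 34.1 and 31.8 CPM in nej3 and 2.69, 2.56, 3.19 and 2.69 CPM in w1118 (3.54 ± 0.10, adjusted p = 1.1e-12). Its neighbour PH4alphaSG1 (FBgn0051014, 3R 30503665 to 30505661) measured 20.1 to 22.4 CPM in nej3 and 39.9 to 42.8 CPM in w1118 (-0.97 ± 0.06, adjusted p = 1.4e-08). So one gene of this pair rose and the other fell. The groups overlapped in neither, which the choice had required of PH4alphaSG2.

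Metabolic enzymes were also among the top rises. AsnS, asparagine synthetase (FBgn0041607, 3L 21173118 to 21174973), measured 32.6, 19.4, 23.8 and 14.99 CPM in nej3 and 3.46 to 4.19 CPM in w1118 (2.58 ± 0.22, adjusted p = 4.8e-06). Dci, an isomerase of fatty acid oxidation (FBgn0035169, 3L 851346 to 852673), measured 10.2 to 15.8 CPM in nej3 and 1.92 to 2.73 CPM in w1118 (2.52 ± 0.16, adjusted p = 1.2e-08). Sirup, an assembly factor of succinate dehydrogenase, varied widely within nej3, with 111, 211, 131 and 48.4 CPM against 12.8 to 15.4 CPM in w1118 (3.15 ± 0.69, adjusted p = 0.0097). It was not called without the 3 libraries that stood apart (adjusted p = 0.092), where the log2 change was 3.16.

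Of the 20 largest falls, 5 were of P450 genes and 3 of metal handling genes. The lists held 59 P450 and 28 metal handling genes among the 10397 tested. The 20 came only from named genes at a mean of at least 5 CPM, so these shares are not directly comparable. The whole P450 list had 11 genes up and 12 down. PGRP-SD, a secreted sensor of bacterial peptidoglycan (FBgn0035806, 3L 7651180 to 7651900), measured 2.89, 2.71, 4.0 and 2.35 CPM in nej3 and 20.9, 19.7, 21.9 and 20.6 CPM in w1118 (-2.79 ± 0.13, adjusted p = 2.8e-10). mre11, whose product trims broken DNA ends before they are rejoined (FBgn0020270, 2L 11282090 to 11284335), measured 3.95, 4.70, 3.45 and 4.42 CPM against 26.9, 27.7, 27.4 and 26.3 CPM (-2.71 ± 0.15, adjusted p = 5.3e-09). The choice of these genes required no overlap between the groups. RpS5b, a second copy of the gene for ribosomal protein S5 (FBgn0038277, 3R 14900432 to 14901563), measured 32.9, 39.9, 43.8 and 36.9 CPM in nej3 and 176, 174, 169 and 181 CPM in w1118 (-2.19 ± 0.08, adjusted p = 9.5e-11). The main copy RpS5a on the X stood at 1293 to 1637 CPM in nej3 and 1329 to 1489 CPM in w1118 (0.03 ± 0.07, adjusted p = 0.77), and reads can be shared between these similar copies.

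The metal handling genes among the 20 were ZnT35C, Ctr1B and MtnA. ZnT35C, a zinc transporter (FBgn0028516, 2L 15228728 to 15247714), measured 23.9, 16.4, 24.0 and 19.4 CPM in nej3 and 81.5, 78.5, 82.1 and 96.3 CPM in w1118 (-2.02 ± 0.11, adjusted p = 2.6e-08). Ctr1B, a copper importer (FBgn0062412, 3R 8317612 to 8319205), measured 2.25 to 3.50 CPM in nej3 and 8.06 to 12.3 CPM in w1118 (-2.002 ± 0.16, adjusted p = 2.1e-07). MtnA, a metallothionein that binds copper and other metals (FBgn0002868, 3R 9783407 to 9784370), measured 82.7, 81.0, 88.0 and 77.5 CPM in nej3 and 254, 300, 281 and 271 CPM in w1118 (-1.75 ± 0.06, adjusted p = 1.5e-11). All 3 were lower in each nej3 library than in any control, as the choice of the 20 required. The photolyase gene phr (FBgn0003082, 2R 7825289 to 7827319), whose product repairs ultraviolet damage with light, measured 3.95, 3.16, 5.55 and 7.41 CPM against 21.2 to 23.1 CPM (-2.15 ± 0.20, adjusted p = 4.4e-06). The adenosine kinase gene Ady43A measured 9.48 to 11.9 CPM against 40.6 to 46.6 CPM (-1.99 ± 0.08, adjusted p = 2.9e-11).

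The P450 genes among the 20 were Cyp6t1 (-1.99 ± 0.14, adjusted p = 7e-08), Cyp6d2 (-1.86 ± 0.12), Cyp310a1 (-1.74 ± 0.19), Cyp9b2 (-1.61 ± 0.23) and Cyp6a13 (-1.22 ± 0.11). Sid, a stress-induced DNase, fell by 1.71 on the log2 scale. pst (pastrel), a factor of resistance to viruses, measured 35.1 to 55.4 CPM in nej3 and 122 to 144 CPM in w1118 (-1.57 ± 0.12, adjusted p = 2.5e-06). Mal-B1, a maltase, changed by -1.60 ± 0.18, the serine protease gene Jon65Aiii by -1.31 ± 0.17, and the Drosomycin-like gene Drsl5 by -1.21 ± 0.22. Ass, argininosuccinate synthase, changed by -1.29 ± 0.22 and phu by -1.18 ± 0.12. The annotation places other genes on the opposite strand over 64.3% of the exonic bases of Ass and 51.0% of those of Cyp6d2, and reads from such pairs may be shared.

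**Figure D1:**
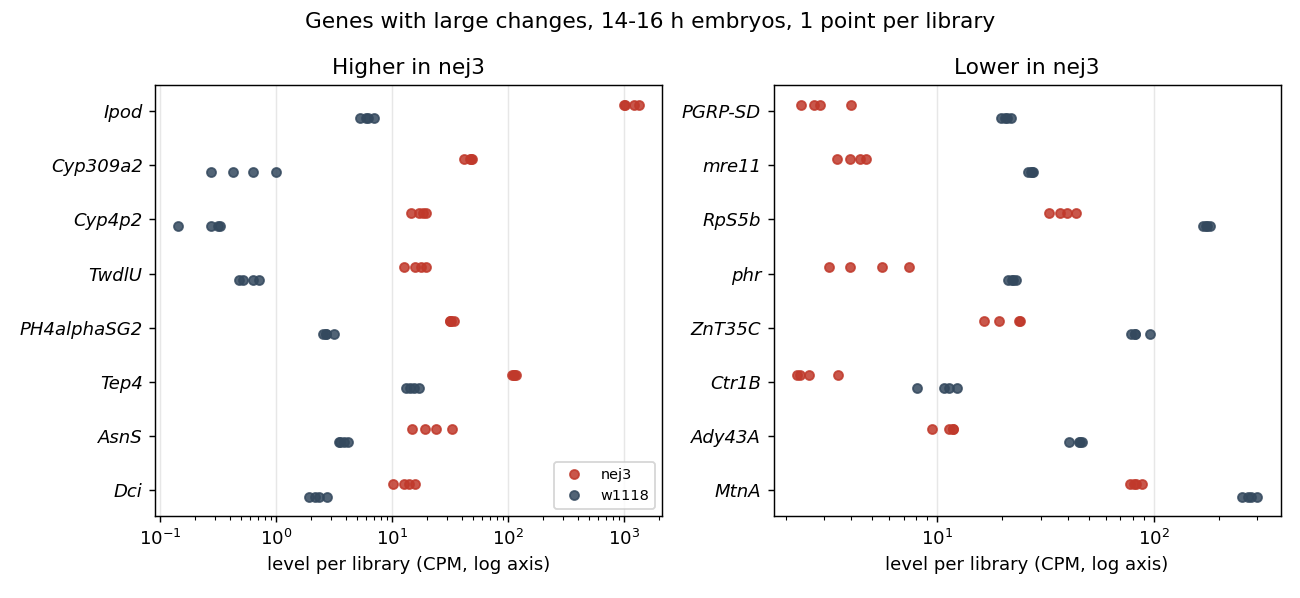
Levels of 8 genes with large rises (left) and 8 with large falls (right) in nej3, with 1 point per library for 4 nej3 and 4 w1118 libraries and CPM on a log axis. The genes were chosen among those without overlap between the nej3 and w1118 points. Ipod lies at 1004 to 1349 CPM in nej3 and 5.29 to 7.01 CPM in w1118.

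Some genes were close to all-or-none. A total of 16 genes had at most 0.2 CPM in each w1118 library and at least 1 CPM in each nej3 library, and 2 genes showed the reverse. This class was drawn after the values were seen and is given as a description. The eye pigment transporter gene w (FBgn0003996, X 2790599 to 2796466) had 2863 counts over the nej3 libraries and 6 over those of w1118, with 37.0, 36.8, 43.5 and 39.1 CPM in nej3 replicates 1 to 4. In nejEP1179 it was between these groups, with 1.90 to 4.78 CPM. Victoria, a stress gene of the Turandot family, had 558 counts in nej3 and 0 in w1118, which makes it at least 208-fold higher from a floor of 3 counts over the 4 w1118 libraries. CG8851 had 298 counts in nej3 and 0 in w1118, at least 110-fold higher, and 0 to 0.156 CPM in nejEP1179.

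On the reverse side, Cnx14D, a calnexin chaperone gene of the endoplasmic reticulum (FBgn0264077, X 16522967 to 16525415), had 2 counts in nej3 and 462 in w1118, where it measured 4.66 to 6.51 CPM. In nejEP1179 it was also close to absent, with 0 to 0.395 CPM. sordd2 had 1238 counts in nej3 and 3 in w1118, and 17.2 to 18.9 CPM in nejEP1179. The glucuronosyltransferase gene Ugt37A2 had 243 counts in nej3 and 4 in w1118, and its level was 2.35 to 4.03 CPM in nej3 and 17.4 to 21.8 CPM in nejEP1179. Of the 18 genes in both classes, the one on the Y chromosome was fdy, and 3 were copies of Hsp70.

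The 13 mutant and 3 w1118 libraries at 16 to 18 h named above are in a table scaled separately, with other control libraries. Ranges there show whether a gene was low in w1118 at both ages. Of the 20 largest rises in nej3, 19 were in that table, and for 4 of them (w, sordd2, Ipod and Prx2540-1) each of the 13 mutant libraries lay above each of the 3 w1118 libraries. Over all 10269 genes in both tables, this held for 2.11%. Of the 20 largest falls it held on the lower side for 3 (PGRP-SD, MtnA and Cyp9b2), against 2.84% of all genes. Ipod measured 20.7 to 1180 CPM in the 13 mutant libraries and 0.249 to 0.653 CPM in w1118 at 16 to 18 h. Tep4, on the other hand, was at 108 to 126 CPM in w1118 at the later age, near its level in nej3 at 14 to 16 h. Cyp4p2 stood at 14.5 to 15.5 CPM in the later w1118 and at 0.137 to 14.3 CPM in the 13 mutant libraries. All of these mutant libraries thus lay below w1118, the reverse of its rise in nej3. Mal-B1, which fell in nej3, was also reversed, with 1.42 to 9.74 CPM in the mutants and 0.848 to 1.11 CPM in the later w1118. These values are descriptions, with no test.

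The position of genes on the chromosomes was examined next. On the X, 10.8% of 1680 genes rose and 9.76% fell, and on the 4 large autosome arms 11.9 to 13.7% rose and 11.1 to 13.1% fell. The small chromosome 4 had 4 genes up and 18 down among 91 tested (4.4 and 19.8%). The median log2 change of X-linked genes was -0.0047. Around nej itself little moved: of 10 genes that start within 100000 bases of it, 1 was called, CG3106 (-0.45 ± 0.09, adjusted p = 0.0022). It measured 71.1 to 92.9 CPM in nej3 and 102 to 120 CPM in w1118. Within 1000000 bases, 17 genes rose and 11 fell among 138 (20.3% called), near the 20.6% of X-linked genes.

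Adjacent genes sometimes moved together. Runs of at least 5 neighbouring tested genes called in the same direction were found at 6 places. The longest were 9 genes of the E(spl) complex on 3R, which rose, and 9 genes at the proximal end of 2R (326768 to 1443935), which fell. In the 2R run the MAP kinase gene rl (FBgn0003256, 2R 1071462 to 1125927), the kinase of the EGFR pathway, measured 86.1, 84.1, 65.0 and 86.7 CPM in nej3 and 158 to 168 CPM in w1118 (-1.03 ± 0.07, adjusted p = 8.3e-08). Yeti, a chromatin protein (2R 1343403 to 1345119), measured 105 to 112 CPM against 211 to 220 CPM (-0.999 ± 0.04, adjusted p = 3.5e-11). Both were close to 50% of the control, and CR44042, a noncoding gene beside Yeti, fell by 2.24 on the log2 scale. Of the 9 genes of this run 0 were called between nej3 and nejEP1179 by edgeR or by DESeq2 and 1 had an unadjusted p under 0.05, with the largest difference -0.66 in CR41257.

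A run of 5 genes on 2R held the peroxiredoxin genes Prx2540-1 and Prx2540-2, whose products reduce peroxides. Prx2540-2 (FBgn0033518, 2R 10418718 to 10419761) measured 231, 377, 388 and 415 CPM in nej3 and 61.4 to 93.2 CPM in w1118 (2.21 ± 0.23, adjusted p = 9.4e-05). Prx2540-1 (FBgn0033520, 2R 10424436 to 10425471) measured 52.3, 98.5, 107 and 154 CPM against 11.5 to 17.1 CPM (2.79 ± 0.32, adjusted p = 1.7e-04). CG12896 of the same cluster measured 29.8, 59.4, 78.2 and 116 CPM against 12.8 to 17.9 CPM (2.13 ± 0.38, adjusted p = 0.0029). The lowest value of each was in nej3 replicate 1 and the highest in replicate 4. These copies are alike in sequence, so reads may be split between them.

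A run of 5 genes on 3R fell, from phu to the GTPase gene Ras85D (-0.26 ± 0.04, adjusted p = 4.6e-04). Within it RhoL, a small GTPase, measured 66.3 to 76.5 CPM in nej3 and 121 to 132 CPM in w1118 (-0.81 ± 0.06, adjusted p = 8.4e-08). The other 2 runs, of 5 genes each, lay on 2R (from CG34045 to CG10062, down) and on 3R (from CG15530 to CG9743, up). In both of them calls were weak in part: CG34045 (adjusted p = 0.048), CG10062 (0.043) and CG15531 (0.042) lost them under several alternatives.

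**Figure D2:**
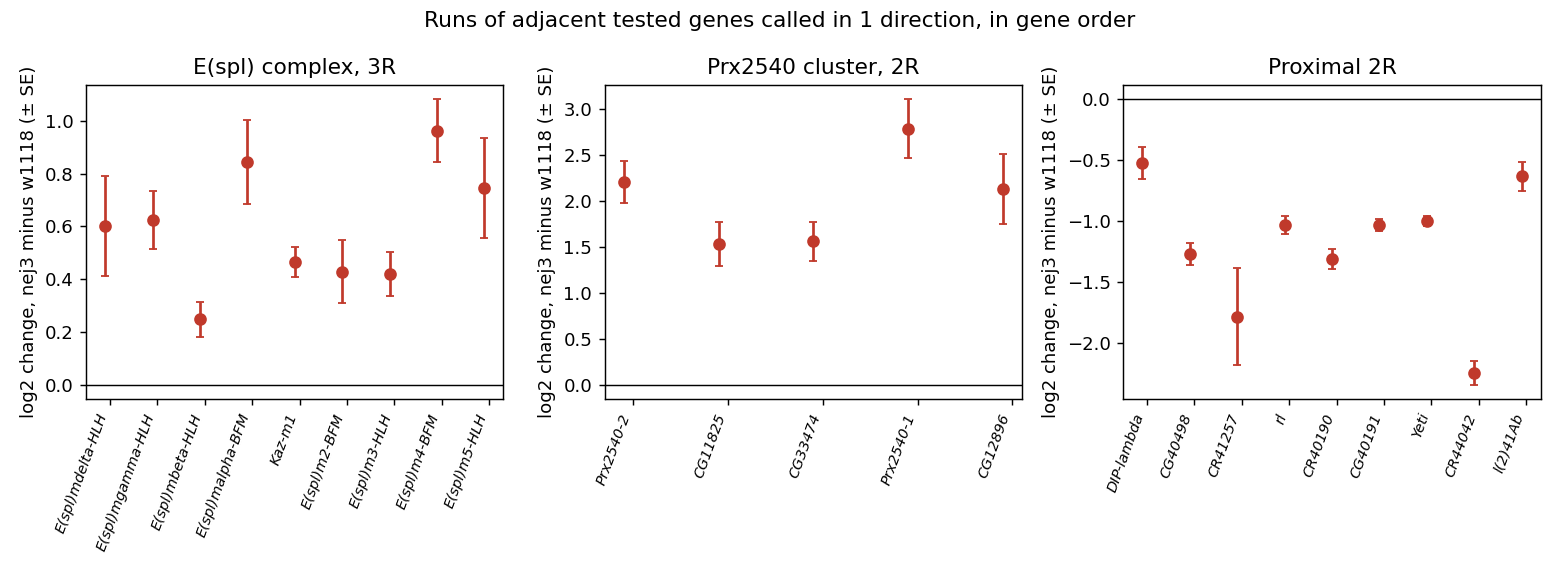
Log2 change of nej3 against w1118, with the SE of the fit as error bars, for 3 runs of adjacent genes in their order on the chromosome, each with its own vertical scale. The 9 genes of the E(spl) run lie between 0.25 and 0.96, the 5 of the Prx2540 run between 1.53 and 2.79, and the 9 of proximal 2R between -2.24 and -0.52.

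Sex markers were checked, since nej is X-linked and the labels do not give the sex of the embryos. The study's methods describe male and female animals in equal amounts, with no figure for nej3. A share of males that differed between nej3 and w1118 would thus not be visible from the labels. The dosage compensation RNAs roX1 and roX2 are made in male cells. roX1 measured 628, 628, 668 and 621 CPM in nej3 and 576, 459, 676 and 505 CPM in w1118 (0.20 ± 0.10, adjusted p = 0.19). roX2 measured 15.8 to 16.6 CPM in nej3 and 15.5 to 22.9 CPM in w1118 (-0.24 ± 0.10, adjusted p = 0.10). In both genes the nej3 values lay inside the range of w1118. Each was called when one control library was left out, roX1 without w1118 replicate 3 (adjusted p = 0.020) and roX2 without w1118 replicate 2 (adjusted p = 0.024). Sxl, the female switch gene, measured 355 to 448 CPM in nej3 and 415 to 465 CPM in w1118 (-0.11 ± 0.06, adjusted p = 0.20, or 0.036 without nej3 replicate 1).

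Of 26 sex determination and dosage compensation genes measured, 2 rose, 2 fell and 22 did not pass (15.4% called against 24.0% of all genes). Without the 3 libraries that stood apart 1 rose and 0 fell by edgeR (4 at an unadjusted p under 0.05). msl-2, the male-specific subunit of the dosage compensation complex, measured 36.3, 36.3, 38.2 and 37.4 CPM in nej3 and 29.8, 26.0, 31.4 and 27.5 CPM in w1118 (0.37 ± 0.06, adjusted p = 2.7e-04), and msl-3, another subunit, stood at -0.25 ± 0.06 (adjusted p = 0.0096, or 0.073 without the 3 libraries that stood apart). tra, the splicing factor of female development, stood at 0.18 ± 0.13 (adjusted p = 0.35). Among Y-linked genes only fdy passed the filter on low counts, and it measured 3.64, 3.78, 3.80 and 2.87 CPM in nej3 and 0 to 0.0963 CPM in w1118 (5.71 ± 0.31, adjusted p = 2.2e-09). fdy is a young duplicate of an autosomal gene, so reads can be shared with that gene. The other 12 Y-linked genes had between 0 and 9 counts summed over 4 libraries in either group.

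The genes that write, read and erase acetyl-lysine were the next group, because CBP itself is one of them. Of 24 measured, 1 rose, 2 fell and 21 did not pass, below the 24.0% of all genes. Acf1, the bromodomain subunit of the ACF nucleosome-spacing complex (FBgn0027620, 3R 31793981 to 31799799), measured 54.5, 57.2, 57.2 and 52.3 CPM in nej3 and 21.8, 23.4, 25.5 and 23.2 CPM in w1118 (1.24 ± 0.06, adjusted p = 3e-10). Ada2a, the adaptor of the ATAC acetyltransferase complex (FBgn0263738, 3R 18252843 to 18255487), measured 8.85, 8.37, 10.9 and 9.07 CPM against 18.8 to 20.9 CPM (-1.09 ± 0.08, adjusted p = 1.3e-07). Sirt6, a deacetylase, fell by 0.64 (adjusted p = 0.0018). The acetyltransferase genes Gcn5 (0.09 ± 0.05, adjusted p = 0.20), Tip60 (-0.03 ± 0.08) and enok (0.08 ± 0.05), and the histone deacetylase gene Rpd3 (-0.07 ± 0.05), did not pass.

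Polycomb and trithorax group genes, which silence and activate developmental genes, mostly did not pass. Of 21 Polycomb group genes, none rose by edgeR or by DESeq2 (1 at an unadjusted p under 0.05) and 4 fell, so that 19.0% were called against 24.0% of all genes. Psc, a core subunit of Polycomb repressive complex 1, measured 54.3, 51.2, 61.7 and 63.5 CPM in nej3 and 85.8, 86.2, 79.2 and 81.2 CPM in w1118 (-0.53 ± 0.07, adjusted p = 4.3e-05). Its neighbour Su(z)2, a related protein, measured 88.6 to 98.5 CPM against 122 to 136 CPM (-0.49 ± 0.05, adjusted p = 4.9e-06). The groups did not overlap in either gene, but both were named for their small p, which favours this. Every nej3 library lay below every w1118 library for 13.6% of all genes. The other calls were ph-p (-0.13 ± 0.04) and E(z) (-0.19 ± 0.06), which lost the call under several alternatives (without w1118 replicate 2, adjusted p = 0.069 and 0.054). Of 29 trithorax group and coactivator genes 1 rose and 3 fell (13.8% called). Utx, a demethylase of the Polycomb mark, rose (0.45 ± 0.07, adjusted p = 4.2e-04). Mnn1, the fly menin, fell (-0.39 ± 0.05, adjusted p = 4.4e-05), as did the remodeller gene brm (-0.20 ± 0.05, adjusted p = 0.0048) and ash2, which was not called without nej3 replicate 3 (adjusted p = 0.056).

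The targets that these groups are best known for did not pass at all. Of 16 Hox and head patterning genes measured, none was called by edgeR or by DESeq2 and 3 had an unadjusted p under 0.05 in edgeR, and the median log2 change was 0.05. Ubx measured a mean of 122 CPM in nej3 and 114 CPM in w1118 (0.09 ± 0.05, adjusted p = 0.18), and it was called without nej3 replicate 3 (adjusted p = 0.039). The head gap gene ems was at 0.19 ± 0.07 (adjusted p = 0.060).

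Signalling pathways were then read one by one. In the Notch pathway, in which the ligands Dl and Ser bind the receptor N and switch on the E(spl) genes, 14 of 25 genes measured rose, 1 fell and 10 did not pass, with a median of 0.30 against -0.009 over all genes. The share that rose was 56.0%, against 12.3% of all genes. The receptor N itself measured 154, 137, 159 and 146 CPM in nej3 and 128, 114, 125 and 113 CPM in w1118 (0.31 ± 0.09, adjusted p = 0.028), and its call was lost when nej3 replicate 1 or 3 or w1118 replicate 2 or 4 was left out (adjusted p = 0.062 to 0.077). The ligand gene Dl went the other way, with 51.9 to 54.0 CPM against 62.8 to 68.5 CPM (-0.30 ± 0.06, adjusted p = 0.0019), while Ser was at 0.16 ± 0.05 (adjusted p = 0.031, and up to 0.10 with one library left out). kuz, the protease that cleaves the receptor, rose by 0.25 ± 0.05 (adjusted p = 0.0019), and mib1, the ubiquitin ligase for ligands, by 0.30 ± 0.06 (adjusted p = 0.0013).

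Among the targets, E(spl)m4-BFM, a Bearded-family inhibitor, measured 4.08, 4.18, 3.80 and 3.73 CPM in nej3 and 2.12, 2.08, 1.91 and 1.97 CPM in w1118 (0.96 ± 0.12, adjusted p = 2.4e-05). E(spl)mgamma-HLH, a repressor of proneural genes, measured 6.03, 5.92, 6.0 and 5.68 CPM against 3.80, 3.79, 3.28 and 4.50 CPM (0.62 ± 0.11, adjusted p = 8.9e-04). E(spl)m3-HLH measured 25.6 to 33.2 CPM against 21.3 to 23.1 CPM (0.42 ± 0.08, adjusted p = 0.0015). All of these were higher in each nej3 library than in any control, as were 13.7% of all genes. They were named for their small p, which favours a lack of overlap. The weaker calls of the complex, E(spl)mdelta-HLH, E(spl)m2-BFM and E(spl)mbeta-HLH, were lost when single libraries were left out (adjusted p up to 0.089, 0.058 and 0.051). Kaz-m1, a protease inhibitor gene inside the complex, rose by 0.47 ± 0.06 (adjusted p = 2e-05). A noncoding gene on the same strand overlaps 57.0% of its exonic bases, so reads may be shared. The nuclear partner Su(H) (-0.15 ± 0.11, adjusted p = 0.35) and the coactivator mam (0.04 ± 0.06, adjusted p = 0.65) did not pass. Without the 3 libraries that stood apart, 8 genes of the list rose and 1 fell.

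The pathways in which CBP has been described as a coactivator were counted in the same way. Of 17 Hedgehog pathway genes, 3 rose and 2 fell (29.4% called against 24.0% of all genes), or 1 and 2 without the 3 libraries that stood apart. In this list ptc, the receptor and a direct target, rose by 0.37 ± 0.06 (adjusted p = 3.2e-04), hh itself by 0.42 ± 0.10 (adjusted p = 0.0059), and cos, a kinesin-like inhibitor, fell by 0.36 (adjusted p = 1.6e-04). The call of hh was lost without the 3 libraries that stood apart (adjusted p = 0.070). Of 22 Wingless pathway genes, 2 rose and 1 fell (13.6% called), and without the 3 libraries 0 rose by edgeR (1 at an unadjusted p under 0.05) and 1 fell. The gene that fell was the ligand gene Wnt5 (-0.29 ± 0.05, adjusted p = 2.2e-04), and wg was at 0.18 ± 0.07 (adjusted p = 0.060). Of 27 Dpp pathway genes, 4 rose and 1 fell (18.5% called), and without the 3 libraries none was called by edgeR and 6 had an unadjusted p under 0.05. The FGF receptor gene htl rose from 45.2 to 58.2 CPM on average (0.37 ± 0.05, adjusted p = 3.9e-05) in an EGFR and FGF list of 20, where 4 rose and 3 fell (35.0% called), or 3 and 1 without the 3 libraries.

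Heat shock chaperones rose as a group: 22 of 27 measured genes were called higher and 0 lower (81.5% against 12.3% of all genes). The median log2 change was 1.19. These proteins keep others folded and are switched on by the factor Hsf upon heat and other stresses. Hsp26 (FBgn0001225, 3L 9376418 to 9377427), a small heat shock protein, measured 700, 487, 485 and 310 CPM in nej3 replicates 1 to 4 and 7.22, 4.88, 6.19 and 5.59 CPM in w1118 (6.37 ± 1.08, adjusted p = 0.0023). Hsp27 (FBgn0001226) measured 292, 203, 246 and 157 CPM against 7.01 to 7.87 CPM (4.91 ± 0.55, adjusted p = 1.8e-04). Every nej3 library was at least 10 times above the highest control in both, with replicate 1 the highest and replicate 4 the lowest.

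The inducible Hsp70 family behaved similarly at lower levels. Hsp68, a Hsp70 relative, measured 160, 138, 104 and 76.5 CPM in nej3 and 3.14 to 4.52 CPM in w1118 (4.99 ± 0.70, adjusted p = 7.3e-04). Hsp70Bb measured 44.4, 37.3, 19.4 and 18.8 CPM against 0.481 to 0.713 CPM (5.66 ± 1.11, adjusted p = 0.0054), and Hsp70Ab measured 26.9, 22.9, 13.9 and 11.8 CPM against 0.332 to 0.770 CPM (5.25 ± 1.23, adjusted p = 0.013). In Hsp68, Hsp70Bb and Hsp70Ab replicates 1 and 2 were above replicates 3 and 4. Hsp70Bc had 897 counts in nej3 and 3 in w1118. Hsp70Ba did not pass (2.48 on the log2 scale, adjusted p = 0.11), as its nej3 values ran from 0.919 to 9.65 CPM. The Hsp70 copies are nearly identical and share reads, so no copy is told from another with confidence, and the calls of Hsp70Bb and Hsp70Ab were lost without the 3 libraries that stood apart (adjusted p = 0.060 and 0.11).

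Abundant chaperones changed less in fold and with a smaller SE than Hsp26 and Hsp68, though their nej3 replicates still varied. Hsp83, the fly Hsp90, measured 1496, 1233, 1294 and 1096 CPM in nej3 and 543.7 to 569 CPM in w1118 (1.20 ± 0.12, adjusted p = 1.5e-05). DnaJ-1, a Hsp40 cochaperone, measured 317 to 472 CPM against 153 to 164 CPM (1.33 ± 0.21, adjusted p = 0.0011), and stv, a BAG-domain cochaperone, measured 149 to 189 CPM against 82.0 to 85.2 CPM (0.996 ± 0.08, adjusted p = 4.2e-07). Hsf, which encodes the heat shock transcription factor, rose too, with 160, 175, 153 and 121 CPM against 95.7 to 100.5 CPM (0.64 ± 0.14, adjusted p = 0.0075, or 0.12 without the 3 libraries that stood apart). The constitutive Hsc70-4 rose by 0.33 ± 0.05 (adjusted p = 1.7e-04). The mitochondrial chaperones Hsc70-5 (0.02 ± 0.04, adjusted p = 0.77) and Hsp60 (0.12 ± 0.05, adjusted p = 0.11) did not pass.

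The summed level of the 27 chaperone genes was 10070, 8824, 9094 and 7874 CPM in nej3 replicates 1 to 4 and 5667 to 5814 CPM in w1118. It was 5974 to 7159 CPM in nejEP1179, where replicate 2 was the highest. In nejEP1179, Hsp26 measured 6.003, 151, 10.8 and 18.6 CPM, so that replicate 2 stood far above the rest. Compared directly, 15 of the 27 genes were higher and 1 (Hsc70-2) lower in nej3 than in nejEP1179, against 5.0% and 4.3% of all genes. Several of these calls were weak: Hsp26 (3.38 ± 0.90, adjusted p = 0.047) lost it in a fit of only the 8 libraries compared (adjusted p = 0.15). Without the 3 libraries that stood apart, 15 genes of the list still rose against w1118. What embryos met during picking and handling is not given per library, and its part in these levels was not tested.

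**Figure D3:**
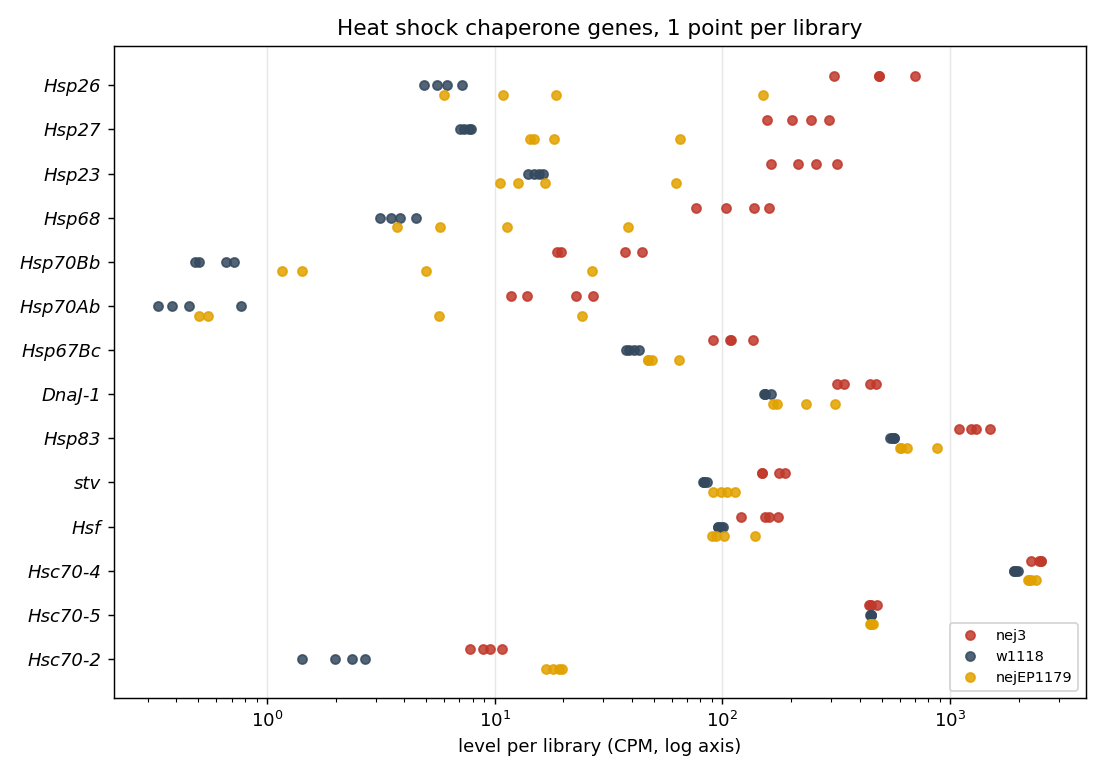
Levels of 14 heat shock chaperone genes with 1 point per library, in 4 libraries each of nej3, w1118 and nejEP1179, with CPM on a log axis. Hsp26 lies at 310 to 700 CPM in nej3 and 4.88 to 7.22 CPM in w1118, with 1 nejEP1179 library at 151 CPM, while Hsc70-5 lies at 441 to 479 CPM over the 12 libraries.

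Other stress genes moved both ways. Of 31 genes of oxidative stress and the unfolded protein response, 7 rose (22.6%) and 6 fell (19.4%), against 12.3% and 11.7% of all genes, with a median of -0.02. PEK, the kinase that slows translation upon endoplasmic reticulum stress, rose from 55.9 to 79.0 CPM on average (0.50 ± 0.05, adjusted p = 6.5e-06), while crc, the fly ATF4 that acts downstream of it, fell from 588 to 462 CPM (-0.35 ± 0.04, adjusted p = 1.5e-05). crc shares 73.5% of its exonic bases with an overlapping annotated gene. Gclm, a subunit of the first enzyme of glutathione synthesis, rose by 0.43 ± 0.07 (adjusted p = 4.1e-04).

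Detoxification genes were called often and in both directions. Of 59 P450 genes measured, 11 rose and 12 fell (39.0% called against 24.0%), and of 60 glutathione and UDP-sugar transferase genes, 20 rose and 9 fell (48.3% called). Besides the P450 genes above, Cyp12a4 dropped from 2.64 to 3.22 CPM in w1118 to 0.050 to 0.251 CPM in nej3 (-4.22 ± 0.32, adjusted p = 1.2e-07) and Cyp6a17 rose from 0.274 to 0.626 CPM to 1.75 to 3.67 CPM (2.59 ± 0.30, adjusted p = 1.2e-05). GstE1, a glutathione transferase, measured 44.1, 54.8, 53.4 and 46.9 CPM in nej3 and at most 14.2 CPM in w1118 (1.86 ± 0.08, adjusted p = 8.6e-11). GstE7 (1.24 ± 0.10) and GstE3 (1.01 ± 0.08) of the same cluster rose with it, as did GstS1, the sigma class transferase (0.82 ± 0.05, adjusted p = 5.6e-09). The efflux pump gene MRP, an ABC transporter, measured 298, 312, 308 and 305 CPM against 145, 148, 150 and 136 CPM (1.08 ± 0.05, adjusted p = 9.4e-11).

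Of 28 metal handling genes, 6 rose and 7 fell (46.4% called against 24.0% of all genes). Besides MtnA, ZnT35C and Ctr1B, the copper chaperone gene Atox1 fell (-0.33 ± 0.06, adjusted p = 6.9e-04), while the copper exporter gene ATP7 rose (0.35 ± 0.06, adjusted p = 3.2e-04). Of these copper genes Ctr1B, Atox1 and MtnA were lower and ATP7 higher. They were picked by p or by size of change and do not stand for the whole list. The zinc transporter gene Zip48C fell by 0.38 (adjusted p = 3.6e-04).

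Immune genes changed in both directions. Of 29 Toll and Imd pathway genes, 9 rose (31.0%) and 6 fell (20.7%), against 12.3% and 11.7% of all genes, and 35 were in the table. PGRP-LA, a recognition protein of the Imd pathway, measured 39.0, 41.03, 36.5 and 41.7 CPM in nej3 and 18.9 to 20.6 CPM in w1118 (0.99 ± 0.06, adjusted p = 8.9e-09). psh (1.06 ± 0.17, adjusted p = 2.3e-04) and SPE (0.65 ± 0.09, adjusted p = 9.3e-05), serine proteases ahead of the Toll receptor, rose, as did dl, the NF-kappaB factor of that pathway (0.37 ± 0.06, adjusted p = 4.1e-04). pll, its kinase, fell by 0.38 (adjusted p = 0.0010). Of antimicrobial effector genes only 9 of 46 passed the filter, with 2 up and 1 down (33.3% called against 24.0% of all genes). Both hemocyte prophenoloxidase genes, whose products make melanin, fell: PPO2 measured 286 to 329 CPM against 418 to 473 CPM (-0.52 ± 0.06, adjusted p = 1.7e-05) and PPO1 192 to 234 CPM against 275 to 329 CPM (-0.43 ± 0.07, adjusted p = 3.2e-04). In the whole list of 26 hemocyte and basement membrane genes, 3 rose and 4 fell (26.9% called).

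Of 49 DNA repair genes 7 rose (14.3%) and 8 fell (16.3%), near the 12.3% and 11.7% of all genes, or 5 and 5 without the 3 libraries that stood apart. Beside the falls of mre11 and phr the related photolyase gene phr6-4 rose from 0.865 to 1.40 CPM in w1118 to 2.40 to 3.79 CPM in nej3 (1.45 ± 0.19, adjusted p = 4.8e-05). Of 22 apoptosis genes 5 rose (22.7%) and 6 fell (27.3%), or 3 and 3 without the 3 libraries that stood apart. The death gene rpr rose from 15.4 to 23.3 CPM on average (0.59 ± 0.09, adjusted p = 1.6e-04), with the caspase gene Dronc (0.42 ± 0.06, adjusted p = 1.8e-04). Its partner hid fell by 0.26 (adjusted p = 0.0070), a call that was lost without the 3 libraries that stood apart (adjusted p = 0.096). Of 51 cell cycle and replication genes 2 rose and 8 fell (19.6% called), or 1 and 7 without those libraries. CycA (-0.31 ± 0.05, adjusted p = 5.8e-04), the mitotic cyclin, and Top2 (-0.28 ± 0.05, adjusted p = 0.0011), topoisomerase II, were among the latter, while the replication gene Psf1 rose by 1.52 ± 0.19 (adjusted p = 2.8e-05).

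Markers of tissues came next. Of 19 ELAV-family and neuronal RNA processing genes, 3 rose and 1 fell (21.1% called against 24.0% of all genes), and without the 3 libraries that stood apart 2 rose and 0 fell by edgeR (1 at an unadjusted p under 0.05). Rbp9, an ELAV-family RNA-binding protein, measured 74.2, 79.0, 64.6 and 83.6 CPM in nej3 and 47.4 to 53.02 CPM in w1118 (0.59 ± 0.07, adjusted p = 2.1e-05). brat, a translational repressor that limits neuroblast self-renewal, measured 299 to 376 CPM against 239 to 261 CPM (0.40 ± 0.08, adjusted p = 0.0024). Of 27 neuroblast genes 8 rose (29.6% against 12.3% of all genes) and none fell by edgeR or by DESeq2 (1 at an unadjusted p under 0.05), but 2 rose without the 3 libraries that stood apart.

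Genes of mature neurons were called at 23.9% of 46 channels and receptors (6 up and 5 down), 15.6% of 32 synaptic release genes and 15.8% of 19 neurotransmitter genes, against 24.0% of all genes. Among the channel and receptor genes 5 rose and 2 fell when the 3 libraries were left out. VGlut, the vesicular glutamate transporter of motor neurons (FBgn0031424, 2L 2400295 to 2410662), measured 119, 133, 105 and 122 CPM in nej3 and 233, 236, 204 and 206 CPM in w1118 (-0.88 ± 0.07, adjusted p = 4.7e-07). It was the largest change among 19 neurotransmitter genes, of which none rose by edgeR or by DESeq2 (4 at an unadjusted p under 0.05) and 3 fell. On the muscle side of that synapse the glutamate receptor subunit gene GluRIID fell from 72.9 to 49.8 CPM (-0.55 ± 0.05, adjusted p = 7.3e-07). Of the synaptic release genes 1 rose and 4 fell, with a median of 0.01, and without the 3 libraries 0 rose by edgeR (2 at an unadjusted p under 0.05) and 2 fell. 5-HT7, a serotonin receptor gene of the channel and receptor list, rose by 0.66 ± 0.09 (adjusted p = 8.6e-05). repo, the transcription factor that marks nearly all lateral glia, measured 27.3, 24.8, 25.7 and 27.4 CPM in nej3 and 38.2, 40.2, 39.5 and 39.1 CPM in w1118 (-0.58 ± 0.05, adjusted p = 7.6e-07). In the glial list as a whole, 2 of 23 rose and 3 fell (21.7% called), or 2 and 1 without the 3 libraries.

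Of 37 axon guidance genes 13 rose (35.1% against 12.3% of all genes), 1 fell and 23 did not pass, with a median of 0.09. caps, a leucine-rich repeat receptor (0.30 ± 0.04, adjusted p = 9.9e-05), and Sema-2a, a secreted repellent (0.30 ± 0.04, adjusted p = 1.1e-04), were among them. Without the 3 libraries that stood apart 3 rose. Of 45 muscle genes 10 rose (22.2% against 12.3% of all genes) and 1 fell (2.22% against 11.7%). Without the 3 libraries 11 rose and 0 fell by edgeR (1 at an unadjusted p under 0.05). rols, a fusion adaptor of myoblasts (0.30 ± 0.05, adjusted p = 5.1e-04), and Zasp52, a protein of the Z-disc (0.29 ± 0.06, adjusted p = 0.0015), rose. Of 22 tracheal genes 7 rose and 1 fell (36.4% called), with Pde9, a phosphodiesterase (0.54 ± 0.08, adjusted p = 1.1e-04), and Cad99C, an apical cadherin (0.34 ± 0.05, adjusted p = 8e-05), at the front.

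**Figure D4:**
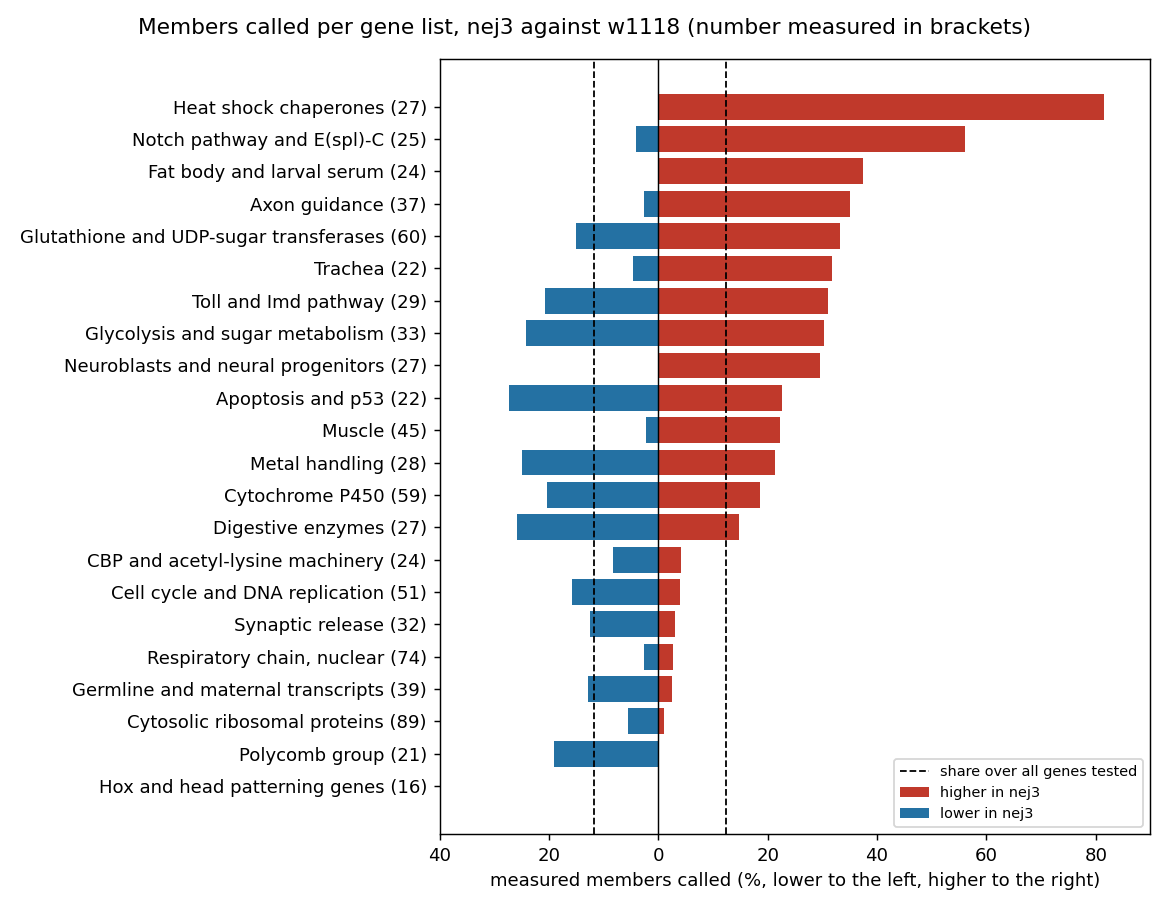
Share of measured members called in 22 gene lists, in percent, higher in nej3 to the right and lower in nej3 to the left, with the number measured in brackets and dashed lines at the shares of all genes tested (12.3% and 11.7%). Heat shock chaperones reach 81.5% and the Notch list 56.0% on the right, and the Hox list has no bar.

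The outer layers were also compared with the age of the embryos in view, since cuticle genes switch on at the end of embryogenesis. The summed level of 77 cuticle protein genes was 5390 to 9530 CPM in nej3 and 4500 to 6680 CPM in w1118 at 14 to 16 h, and 40300 to 42500 CPM in w1118 at 16 to 18 h, in the separately scaled table. That of 19 Osiris genes, which are expressed in a short window while cuticle is laid down, was 24700 to 33100 CPM in nej3, 29200 to 35200 CPM in w1118 and 508 to 1470 CPM in the later w1118. By these lists nej3 lay nearer to w1118 of its own age. The summed level of 54 genes of chitin synthesis and cuticle cross-linking differed from this, with 16500 to 18700 CPM in nej3, 14900 to 16000 CPM in w1118 of the same age and 16400 to 17600 CPM in the later w1118, so that nej3 lay above the former and overlapped the latter. Of the 77 cuticle genes 6 rose (7.79%) and 4 fell (5.19%), and of 56 genes of chitin synthesis and cross-linking measured 8 rose and 1 fell (16.1% called). yellow-c rose from 57.0 to 103 CPM (0.86 ± 0.06, adjusted p = 6.9e-08), though 74.8% of its exonic bases overlap a gene on the other strand, and obst-B, a chitin-binding protein, rose by 0.46 ± 0.06 (adjusted p = 3.4e-05). The larval cuticle gene Lcp4 fell by 1.57 (adjusted p = 1.1e-04).

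Of 27 digestive enzyme genes 4 rose (14.8%) and 7 fell (25.9%), against 12.3% and 11.7% of all genes, with a median of -0.38. alphaTry, a trypsin (-1.95 ± 0.25, adjusted p = 3.8e-05), belongs to a cluster of similar copies and reads may be shared. The amylase gene Amy-p rose from at most 0.165 CPM in w1118 to 0.976 to 1.57 CPM in nej3 (3.74 ± 0.39, adjusted p = 3.7e-06). Of 24 fat body genes 9 rose (37.5%) and none fell by edgeR or by DESeq2 (1 at an unadjusted p under 0.05). Lsp1gamma, a larval serum protein, measured 6.72, 8.62, 7.05 and 6.89 CPM against 1.49 to 2.27 CPM (1.94 ± 0.14, adjusted p = 5.1e-08). bmm (Brummer), the lipase that releases stored fat, measured 68.3, 71.5, 62.5 and 65.8 CPM in nej3 and 38.9 to 42.5 CPM in w1118 (0.72 ± 0.05, adjusted p = 5.1e-08). Without the 3 libraries that stood apart 8 fat body genes rose.

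Sugar metabolism genes were called in both directions. Of 33 such genes 10 rose and 8 fell (54.5% called against 24.0% of all genes). Inos, inositol phosphate synthase (FBgn0025885, 2R 7454922 to 7458874), measured 17.9, 25.4, 22.6 and 18.5 CPM in nej3 and 3.95 to 5.46 CPM in w1118 (2.19 ± 0.13, adjusted p = 9.2e-09). Pepck2, a gluconeogenic carboxykinase (FBgn0034356, 2R 18527430 to 18535749), measured 32.5, 31.5, 31.1 and 26.6 CPM against 7.70 to 8.62 CPM (1.86 ± 0.17, adjusted p = 5.3e-06). Pdk, the kinase that shuts pyruvate dehydrogenase, measured 127, 101, 107 and 88.5 CPM against 35.8 to 42.3 CPM (1.45 ± 0.12, adjusted p = 6e-06). In each the nej3 libraries were far above all controls, though genes named for a small p tend to lack overlap. The glycolytic genes Ald, aldolase (-0.27 ± 0.05, adjusted p = 6.3e-04), and Gapdh2 (-0.26 ± 0.05, adjusted p = 5.4e-04) fell by less.

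Of 40 genes of amino acid, nucleotide and one-carbon enzymes 11 rose and 6 fell (42.5% called against 24.0% of all genes). The purine synthesis gene ade2 rose (0.47 ± 0.06, adjusted p = 1.9e-05), while Cbs, cystathionine beta-synthase (-0.47 ± 0.06, adjusted p = 1.6e-05), fell. Of 89 cytosolic ribosomal protein genes 1 rose and 5 fell (6.74% called), with a median of 0.02, and without the 3 libraries 1 rose and 2 fell. Of 74 nuclear genes of the respiratory chain 2 rose and 2 fell (5.41% called), with a median of 0.007, or 1 and 1 without the 3 libraries. Of 15 mitochondrially encoded genes 3 fell (20.0% against 11.7% of all genes) and 0 rose by edgeR or by DESeq2 (0 at an unadjusted p under 0.05), or 2 and 1 without the 3 libraries. Among those that fell was mt:ND2 (-1.06 ± 0.23, adjusted p = 0.0079), and mt:ND5 measured 195 to 432 CPM in nej3 and 550 to 969 CPM in w1118 (-1.11 ± 0.28, adjusted p = 0.018). The call of mt:ND5 was lost without the 3 libraries that stood apart (adjusted p = 0.096).

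Among hormone and peptide genes, 6 of 36 ecdysone genes rose and 4 fell (27.8% called against 24.0% of all genes), or 3 and 4 without the 3 libraries that stood apart, and 3 of 31 neuropeptide genes rose (9.68%). phm, an enzyme of ecdysone synthesis, rose from 4.74 to 7.66 CPM on average (0.69 ± 0.12, adjusted p = 4.1e-04), and the neuropeptide precursor gene Nplp2 from 343 to 528 CPM (0.62 ± 0.08, adjusted p = 3.4e-05). Of 10 clock genes 3 rose (30.0% against 12.3% of all genes) and 2 fell (20.0% against 11.7%), or 1 and 1 without the 3 libraries. per measured 11.3, 10.9, 10.8 and 8.15 CPM in nej3 and 5.56 to 7.46 CPM in w1118 (0.73 ± 0.13, adjusted p = 6.3e-04), and cyc, whose product activates per, measured 4.37 to 5.60 CPM against 7.11 to 8.61 CPM (-0.73 ± 0.13, adjusted p = 7.1e-04). Of 39 germline and maternal genes 1 rose and 5 fell (15.4% called), or 1 and 3 without the 3 libraries. fs(1)N, a gene of the egg's vitelline membrane, fell from 2.82 to 4.41 CPM in w1118 to 0.350 to 0.817 CPM in nej3 (-2.44 ± 0.25, adjusted p = 3.5e-06). In a list of 13 genes drawn up around isoform examples of the study, with others such as fne and Khc-73 added, ttk rose (0.54 ± 0.05, adjusted p = 1.3e-06) and so did Mvl, whereas chic (-0.37 ± 0.05, adjusted p = 5.5e-05) and stai (-0.28 ± 0.04, adjusted p = 1.6e-04) fell. In all, 30.8% of this list were called against 24.0% of all genes. The study showed chic from CBP mutant embryos, so its direction is no independent result, and counts per gene do not measure which isoform was made.

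Eye pigment genes and other common strain markers were measured because stocks differ in them. Of 29, 7 rose and 2 fell (31.0% called against 24.0% of all genes), or 3 and 1 without the 3 libraries that stood apart. Besides w, mal, a molybdenum cofactor enzyme, measured 10.2 to 11.4 CPM in nej3 and 17.2 to 19.5 CPM in w1118 (-0.77 ± 0.07, adjusted p = 6.7e-07). cn, an enzyme of brown pigment synthesis, rose by 1.04 ± 0.18 (adjusted p = 5.9e-04), and 68.7% of its exonic bases overlap an antisense gene. The body colour gene y (-0.32 ± 0.60, adjusted p = 0.75) and the eye colour gene v (0.11 ± 0.13, adjusted p = 0.61) did not pass.

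Set directly against nejEP1179, nej3 differed in 967 of 10397 genes (9.3%), 520 higher and 447 lower in nej3. This comparison does not use w1118, but the alleles came from different stocks. A fit of only these 8 libraries called 563, and without nejEP1179 replicate 3 the count was 626. The genes higher in nej3 by the most included w, FucTC and the chaperones Hsp26, Hsp23, Hsp27 and Hsp68. FucTC, a fucosyltransferase gene (FBgn0044872, X 23008766 to 23011303), measured 27.6 to 29.9 CPM in nej3, 27.6 to 30.4 CPM in w1118 and 3.71 to 5.72 CPM in nejEP1179, with nej3 and w1118 overlapping and nejEP1179 below both (nej3 minus nejEP1179 2.52 ± 0.09, adjusted p = 2.4e-10). In contrast Inos (1.70 ± 0.13, adjusted p = 7.2e-07), Pepck2 (1.39 ± 0.16, adjusted p = 2.2e-04), Pdk (1.22 ± 0.12, adjusted p = 9.7e-05) and AsnS (2.17 ± 0.22, adjusted p = 7.2e-05) were higher in nej3 than in nejEP1179 as well as in w1118. AsnS, for example, was at 4.31 to 6.36 CPM in nejEP1179, and bmm at 39.1 to 41.5 CPM (0.75 ± 0.05, adjusted p = 2.5e-07).

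Other genes were lower in nej3 than in nejEP1179. ZnT35C measured 71.5 to 81.2 CPM in nejEP1179, near w1118, and was lower in nej3 (-1.89 ± 0.11, adjusted p = 3.4e-07), as was Cyp6t1 (-1.95 ± 0.15, adjusted p = 6.1e-07). MtnA was at 191 to 222 CPM in nejEP1179, between nej3 and w1118 (-1.31 ± 0.06, adjusted p = 3.6e-09). Others were highest in nejEP1179: blanks, an RNA-binding protein of the testis, was at 13.2 to 18.6 CPM there and at 3.01 to 4.59 CPM in nej3 (-2.02 ± 0.16, adjusted p = 1.3e-06), and Psf3, a replication factor, at 6.539 to 8.56 CPM and 1.90 to 3.08 CPM (-1.73 ± 0.16, adjusted p = 5.3e-06). Psc (-0.53 ± 0.07, adjusted p = 1.5e-04) and Su(z)2 (-0.41 ± 0.05, adjusted p = 1.3e-04) also differed between the alleles, with nejEP1179 at 76.8 to 88.98 CPM and 116 to 130 CPM. The leading rises Ipod (-0.11 ± 0.11, adjusted p = 0.60), Cyp309a2 (-0.15 ± 0.10, adjusted p = 0.38) and Tep4 (-0.04 ± 0.07, adjusted p = 0.74) showed no difference that passed between nej3 and nejEP1179.

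**Figure D5:**
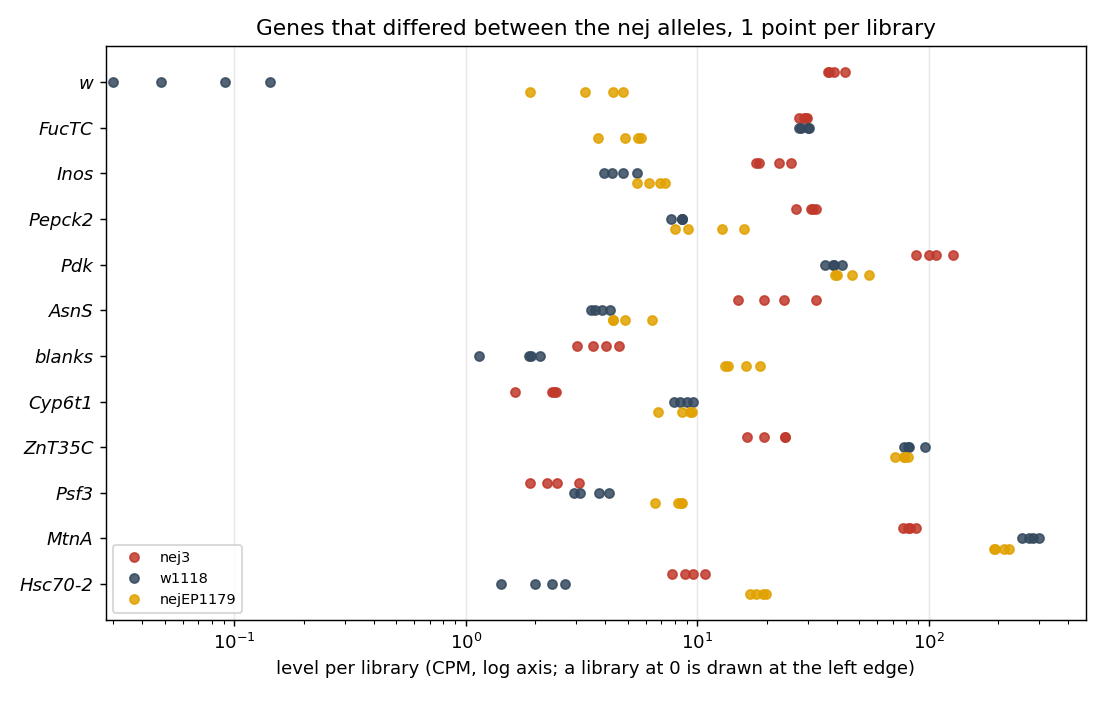
Levels of 12 genes that differed between nej3 and nejEP1179, with 1 point per library for 4 libraries each of nej3, w1118 and nejEP1179 and CPM on a log axis. AsnS, Inos, Pepck2 and Pdk are highest in nej3, ZnT35C and Cyp6t1 are lowest in nej3, and FucTC is lowest in nejEP1179, at 3.71 to 5.72 CPM.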

How the data were processed

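The authors deposited raw read counts per gene, made with featureCounts on the dm6 build per the labels, with versions and the counted strand not given in the sources used here. The authors' DESeq2 tables, with log2 fold changes and p-values, were not used beyond their gene names. All 12 libraries at 14 to 16 h were fitted with group as the only term. After filterByExpr, 10397 of 17558 genes were tested with the quasi-likelihood test of edgeR 4.0.16 (TMM, robust), with Benjamini-Hochberg adjustment over all genes and a threshold of 0.05. Every adjusted p is from this test unless another is named. Reads carry no molecular identifiers, so floors cover counting error only. Total counts were 15974066 to 21509453 in the libraries compared.

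Named genes were nej, the 20 largest rises and falls (adjusted p under 0.05, mean of at least 5 CPM, no overlap between groups, numbered and RNA genes passed over), up to 6 members per list by p, all sex, Y-linked and pigment genes, genes starting within 100000 bases of nej and the 10 largest differences from nejEP1179 in each direction. Genes in runs, all-or-none genes and RpS5a, Dl, Ser, N, Su(H), mam, Hsf, Hsp70Ba, DnaJ-1, Hsc70-5, Hsp60, Gclm and Cyp6a17 were chosen after their values were seen. Comparisons, gene lists and rules were chosen with earlier results of these data known. Alternatives were DESeq2 1.42.0, RLE size factors, no filter, only the libraries compared, a replicate block, each replicate left out, and, added after seeing the data, 3 libraries left out together. Positions come from Ensembl annotation 115 (BDGP6.54, dm6 coordinates). R 4.3.3, limma 3.58.1, Python 3.11.15 and matplotlib 3.10.9 were used.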

Additional observations from a re-analysis of the deposited data

Results flagged for a closer look

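A sample stood apart from the other 3 of its group in 6 of 82 groups examined (nej and the 40 genes with the largest changes, in nej3 and in w1118), by Dixon's gap test, which flags about 1 in 20 groups by chance. The level of nej was 226 CPM in nej3 replicate 3 against 247 to 251 CPM in the others, and 232 CPM in w1118 replicate 4 against 253 to 257 CPM. These are also 2 of the 3 libraries set apart on the second principal component. PH4alphaSG2 was 34.1 CPM in nej3 replicate 3 against 31.8 to 32.0 CPM. Cyp6t1 was 1.63 CPM in nej3 replicate 2 against 2.35 to 2.45 CPM, and Cyp6a13 was 8.01 CPM in the same replicate against 5.46 to 5.75 CPM. Sid was 8.04 CPM in nej3 replicate 4 against 4.59 to 5.15 CPM. For nej the 2 groups overlap. The other 4 genes were chosen for having no overlap, so no value reached the w1118 range.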

How the results depend on the processing

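Against w1118 the count of 2495 genes was 2485 with DESeq2, 2472 with RLE size factors, 2391 with no filter, 2431 from only the 8 libraries compared and 1980 to 2362 with one replicate left out. With 3 libraries left out together the genes lower in nej3 numbered 791 instead of 1212. Replicate numbers did not pair the samples (correlations of same-numbered deviations -0.40, 0.26, -0.16 and -0.28), and with a replicate block 2229 genes were called. Against nejEP1179 the count of 967 fell to 563 in a fit of only these 8 libraries (307 higher and 256 lower) and lay at 626 to 991 with one replicate left out (328 to 528 higher, 287 to 463 lower), and the replicate block gave 768. The cause was not tested. Of 331 genes named by rule that were called, 226 kept the call in every alternative, and none changed sign. Counts of 0 bound a level only down to the floor of 3 counts.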
